A study of Homo sapiens with 8 samples.

Results

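Plexins and neuropilins are the cell-surface receptors for semaphorins, and their transcripts were followed here with PLXNB2, the plexin-B2 gene, at the centre. The 10 genes were PLXNB2, PLXNB1, PLXNB3, PLXNA1, PLXNA2, PLXNA3, PLXND1, PLXNC1, NRP1 and NRP2. Every array feature whose annotation named exactly 1 gene of this family, and that carried a value in all 8 samples, was kept as a separate measurement. That gave 15 features of 9 genes, out of 25094 features with 8 values in the whole table. PLXNB2 was chosen by a measured value, its difference between the constructs in an earlier reading of these arrays. Its values are therefore a description, with no test. The other family members were taken by gene name, with earlier results of these data known.

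Plexins are transmembrane proteins with an extracellular sema domain and a cytoplasmic domain that signals into the cell. Class B plexins bind class 4 semaphorins directly, whereas most class 3 semaphorins reach class A plexins through a neuropilin, which binds the ligand but has only a short cytoplasmic tail. Neuropilins also bind members of the VEGF family. The pathway is best known for steering axons and blood vessels, and it also affects adhesion and migration of epithelial cells.

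Expression was measured on Agilent oligonucleotide arrays in HEK293, a widely used cell line that was derived from fetal kidney and carries adenovirus 5 DNA. The 4 sense and 4 antisense samples came from HEK293 cells that had received linearised pBudCE4.1 vector with a transcript from an intron of KLHL29 as the insert, in the sense or the antisense orientation. All 8 samples had passed through zeocin selection at 50 µg/ml. Each construct was represented by a mixed population from 1 transfection, and its 4 replicates were thawed and grown from frozen stocks of that population, so p-values measure the spread between those cultures and arrays. The orientation of the insert and the transfected population that carries it cannot be told apart. No untransfected or empty-vector cells were analysed here, so each difference below is sense minus antisense. Replicates 1 and 3 of each construct carried the dye Cy3 and replicates 2 and 4 carried Cy5.

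Values are fluorescence intensities, given here in units of 1000000 deposited units, called intensity units, or as log2. The absolute scale of these units is unknown, and probes differ in how strongly they bind, so the level of 1 feature against another says nothing of abundance. Column medians lay between 579 and 590 intensity units in sense samples and between 548 and 571 intensity units in antisense samples. Within each construct, replicates 1 and 2 had nearly equal medians, and so did replicates 3 and 4. Such samples may share an array, which the labels do not state. The fit reported treats all 8 samples as independent. Detection limits inferred from the deposited filter were 24.2 to 47.7 intensity units in sense samples and 46.7 to 72.2 intensity units in antisense samples. KLHL29 feature 44585, annotated to the host gene, with its place relative to the insert not given, read 9.13 to 15.7 intensity units in sense samples and 13.1 to 17.1 intensity units in antisense samples, under the limit in all 8, so it gave no check of the construct labels. Of 8 genes known from HEK293 cells, 7 were detected in all samples, among them the neurofilament genes NEFL and NEFM and the vimentin gene VIM, while PAX2 lay under the limits. Among 14 features with values for markers of blood, endothelial, glial and hepatic cells, 2 were detected, 1 for GFAP and 1 for CD3E, and the leukocyte gene PTPRC lay under the limits.

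The promoters of the 3 plexin genes with the highest sense minus antisense differences are shown here as a description. They were picked by those differences, and a link of sequence to the differences was not tested. PLXNB2 has the window chr22:50301620-50301919, PLXNB1 has chr3:48430037-48430336 and PLXNA2 has chr1:208244335-208244634, all on the minus strand of GRCh38.p14. The sequences are from RefSeq and run 5′ to 3′, from 250 bases before to 50 bases after the annotated start. Capitals mark GC boxes and, in PLXNA2, also an EGR site.
PLXNB2: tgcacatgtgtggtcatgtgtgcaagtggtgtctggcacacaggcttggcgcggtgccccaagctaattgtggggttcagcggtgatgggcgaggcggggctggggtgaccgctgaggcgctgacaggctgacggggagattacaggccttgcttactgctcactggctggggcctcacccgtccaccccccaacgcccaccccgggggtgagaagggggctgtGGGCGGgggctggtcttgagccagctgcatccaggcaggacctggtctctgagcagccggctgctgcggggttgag
PLXNB1: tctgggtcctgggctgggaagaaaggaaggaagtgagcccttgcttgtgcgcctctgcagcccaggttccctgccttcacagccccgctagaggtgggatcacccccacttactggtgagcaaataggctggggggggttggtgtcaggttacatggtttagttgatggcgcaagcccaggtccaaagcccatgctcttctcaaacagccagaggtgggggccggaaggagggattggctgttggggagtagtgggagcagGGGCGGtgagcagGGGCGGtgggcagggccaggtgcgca
PLXNA2: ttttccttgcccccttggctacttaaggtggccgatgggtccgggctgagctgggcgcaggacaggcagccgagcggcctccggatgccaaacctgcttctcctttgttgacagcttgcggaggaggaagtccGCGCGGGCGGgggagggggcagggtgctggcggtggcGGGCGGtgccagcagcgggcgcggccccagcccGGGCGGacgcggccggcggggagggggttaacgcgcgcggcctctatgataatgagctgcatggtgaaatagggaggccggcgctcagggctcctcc

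The GC box is the letters GGGCGG, the core of the site of Sp-family factors, searched on both strands. It occurred 1 time in the PLXNB2 window, 2 times in the PLXNB1 window and 3 times in the PLXNA2 window. RefSeq promoter windows were at hand for 9 of the 10 genes, and all 9 held a GC box, as did 45% of 35116 promoter windows of the same length. PLXND1, with 9 matches, and PLXNA1, with 5, held the most. The EGR letters GCGNGGGCG, which can overlap a GC box, were in 4 of the 9, PLXNA1, PLXNA2, PLXNA3 and PLXND1, and in 9.43% of all windows. PLXNC1 alone among the 9 held the AP-1 letters TGANTCA, which 7.71% of all windows hold, and none of the 9 held the cAMP response element TGACGTCA, present in 1.85%. The GC content of these 3 windows was 66.7% for PLXNB2, 62.3% for PLXNB1 and 70.3% for PLXNA2, against a median of 58.7% over all windows. The other family windows had 87.3% for PLXND1, 83.3% for PLXNA3, 83% for PLXNA1, 70% for NRP2, 65.7% for PLXNB3 and 53.7% for PLXNC1. A match of letters is a description and does not show that a factor binds there.

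PLXNB2, a receptor for class 4 semaphorins and for angiogenin, read higher in sense than in antisense populations on each of its 3 features. Feature 23506 read 3350, 4280, 2810 and 3440 intensity units in sense samples 1 to 4, against 1330, 1850, 1600 and 1680 intensity units in antisense samples 1 to 4. Every sense sample was above every antisense sample. On the log2 scale the feature averaged 31.68 ± 0.25 in sense and 30.58 ± 0.20 in antisense samples (SD, n = 4 each), a difference of 1.10 (SE 0.13) or 2.14-fold. Of the 21451 features detected in all samples of both constructs, 45, or 0.21%, had a larger positive difference. In a bulk culture, fewer cells with the transcript and less transcript per cell cannot be told apart, here and in the results that follow.

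The second PLXNB2 feature, 32505, had the highest mean log2 of the 3 and stood for the gene in the comparison of profiles. It read 3090, 3820, 3740 and 4500 intensity units in sense samples, against 2480, 3500, 2130 and 2290 intensity units in antisense samples. The groups overlapped by 1 sample, antisense 2, which lay above sense 1. Means were 31.81 ± 0.22 in sense and 31.25 ± 0.32 in antisense samples (SD, n = 4 each), so the difference was 0.56 (SE 0.15), or 1.47-fold. Among detected features, 3.48% had a larger positive difference.

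Feature 32684 of PLXNB2 had the widest spread. It read 491, 559, 637 and 822 intensity units in sense samples, against 317, 630, 226 and 322 intensity units in antisense samples, and antisense 2 lay above 2 of the 4 sense samples. Its means were 29.20 ± 0.32 in sense and 28.37 ± 0.62 in antisense samples (SD, n = 4 each), with a difference of 0.83 (SE 0.25), or 1.77-fold. The difference of its means was 1.11 without antisense 2. The 3 features thus had one sign but differed in size, between 0.56 and 1.10.

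**Figure D1:**
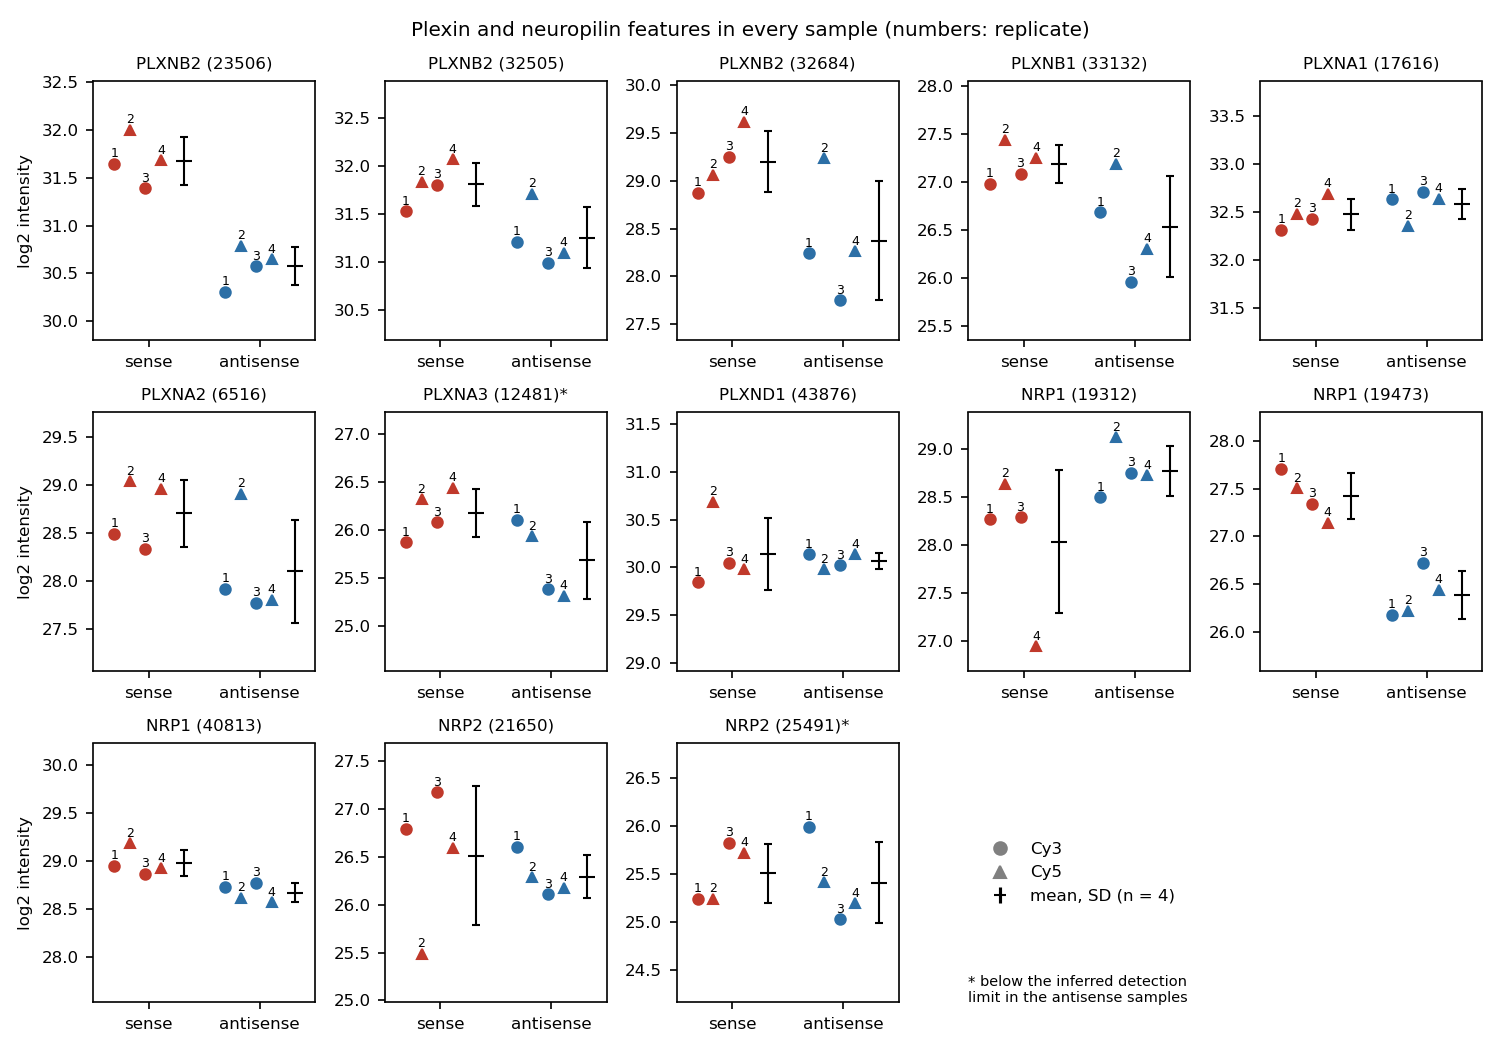
Log2 intensity in each sample of the 13 plexin and neuropilin features detected in at least 1 construct, with sense left of antisense samples, dye shown by the marker, and mean and SD as bars (n = 4 each). Every sense sample of PLXNB2 feature 23506 lies above every antisense sample, with means of 31.68 and 30.58.

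The sign was the same in both dyes on all 3 features. PLXNB2 feature 23506 differed by 1.07 between the 2 sense and 2 antisense samples with Cy3 and by 1.12 between those with Cy5. Feature 32505 differed by 0.56 in Cy3 and 0.55 in Cy5, and feature 32684 by 1.06 in Cy3 and 0.59 in Cy5. With 2 samples a side these values carry no test of their own.

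PLXNB1, the second class B plexin and the receptor of the class 4 semaphorin SEMA4D, had 1 feature with values, 33132. It read 133, 182, 143 and 160 intensity units in sense samples, against 108, 153, 65.4 and 82.8 intensity units in antisense samples. Antisense 2 lay above 2 sense samples, and the other antisense samples lay below all 4. Means were 27.19 ± 0.20 in sense and 26.54 ± 0.53 in antisense samples (SD, n = 4 each). The difference of 0.66 (SE 0.24), or 1.58-fold, did not pass the threshold (95% interval 0.12 to 1.19, limma adjusted p = 0.309). The third class B gene, PLXNB3, had 1 feature on the array and no value there.

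Among the class A plexins, which pair with neuropilins for class 3 semaphorins, PLXNA2 came nearest to the PLXNB2 pattern. Its feature 6516 read 376, 551, 338 and 521 intensity units in sense samples, against 253, 502, 229 and 234 intensity units in antisense samples. Antisense 2 again stood near the sense samples, above 2 of them, while the other antisense samples lay below all 4. Means were 28.70 ± 0.35 in sense and 28.10 ± 0.54 in antisense samples (SD, n = 4 each), a difference of 0.61 (SE 0.22) that did not pass (95% interval 0.11 to 1.10, limma adjusted p = 0.312).

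PLXNA1 did not share this direction. Feature 17616 read 5320, 5980, 5760 and 6930 intensity units in sense samples, against 6650, 5500, 7020 and 6670 intensity units in antisense samples, and the groups overlapped. The difference was -0.11 (SE 0.13, 95% interval -0.40 to 0.18, limma adjusted p = 0.7). It was -0.30 in Cy3 and 0.09 in Cy5, so its sign differed between the dyes.

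PLXNA3, on the X chromosome, was above the limit in all sense samples and in no antisense sample. Feature 12481 read 61.3, 83.5, 70.7 and 90.9 intensity units in sense samples, against 72.2, 64.0, 43.6 and 41.5 intensity units in antisense samples. The limits were higher in the antisense samples, and the readings of the constructs overlapped. With the inferred antisense limits as the bound, its sample mean was at least 1.275-fold higher in sense samples. This bound covers the sample means only, and antisense 1 read 72.2 intensity units, equal to its inferred limit. The fitted difference did not pass and its 95% interval, -0.03 to 1.02, included 0 (limma adjusted p = 0.367).

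PLXND1, the receptor of SEMA3E in endothelial cells, read 964, 1730, 1110 and 1060 intensity units on feature 43876 in sense samples, against 1180, 1060, 1090 and 1180 intensity units in antisense samples. Sense 2 stood above all other samples, and the rest overlapped. The difference was 0.07 (SE 0.18, 95% interval -0.32 to 0.46, limma adjusted p = 0.858), and it was -0.11 without sense 2. PLXNC1, the receptor of SEMA7A, lay under the limit in all 8 samples on feature 10351, at 9.35 to 17.9 intensity units in sense and 10.3 to 16.4 intensity units in antisense samples.

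NRP1 differed between its own features. Feature 19473, annotated to the full-length transcript, read 219, 190, 170 and 148 intensity units in sense samples, against 76.0, 78.4, 111 and 91.4 intensity units in antisense samples. Every sense sample was above every antisense sample, with means of 27.42 ± 0.24 in sense and 26.39 ± 0.25 in antisense samples (SD, n = 4 each). The difference was 1.03 (SE 0.20), or 2.04-fold, and 63 detected features, or 0.294%, had a larger one. It did not pass the threshold over all features (95% interval 0.59 to 1.47, limma adjusted p = 0.164). Antisense 1 and 2 read 76.0 and 78.4 intensity units, close to their inferred limits of 72.2 and 68.3 intensity units. With a pseudocount of 47.2 intensity units added to every value, the difference was 0.745.

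Feature 40813, annotated to the same NRP1 transcript, read 519, 611, 490 and 510 intensity units in sense samples, against 447, 412, 459 and 399 intensity units in antisense samples. The groups did not overlap, but the difference was smaller, 0.31 (SE 0.15, limma adjusted p = 0.368). Feature 19312, annotated to a transcript that encodes a shorter, secreted form of neuropilin-1, had a difference of the opposite sign. Probe sequences were not used here, so which NRP1 isoforms each feature binds is not settled. Feature 19312 read 323, 418, 328 and 129 intensity units in sense samples, against 379, 584, 452 and 444 intensity units in antisense samples, and sense 4 was the lowest sample by a wide gap. Its difference was -0.74 (SE 0.33, limma adjusted p = 0.351), and -0.32 without sense 4.

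Within a sample, subtracting the log2 value of NRP1 feature 19473 from that of 19312 gives a gap that a scale factor of the whole array cannot move. The size of the gap depends on the probes, and only its difference between the constructs is described. It was 0.56, 1.14, 0.95 and -0.20 in sense samples, against 2.32, 2.90, 2.03 and 2.28 in antisense samples, a difference of -1.77. All 4 sense values lay below all 4 antisense values, and the difference was -1.50 without sense 4. For 19312 and 40813 it was -1.05, and -0.70 without sense 4. For 19473 and 40813, which share a transcript annotation, it was 0.72. These gaps were noticed after the values were seen and carry no test. Feature 19473 also lay close to the inferred limits in antisense 1 and 2. Another NRP1 feature, 27699, had no value.

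NRP2, a co-receptor for SEMA3F and for VEGF-C, was detected in both constructs on feature 21650 only. That feature read 116, 47.1, 151 and 101 intensity units in sense samples, against 102, 81.7, 72.3 and 75.7 intensity units in antisense samples. Sense samples held both the highest and the lowest value. The difference was 0.22 (SE 0.28, 95% interval -0.41 to 0.85, limma adjusted p = 0.721), with 0.62 in Cy3 and -0.19 in Cy5. Feature 25491 was above the limit in sense samples only, with overlapping readings of 39.6 to 59.3 intensity units in sense and 34.1 to 66.7 intensity units in antisense samples and no bound above 1. Feature 43127 was under the limit in all 8 samples.

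**Figure D2:**
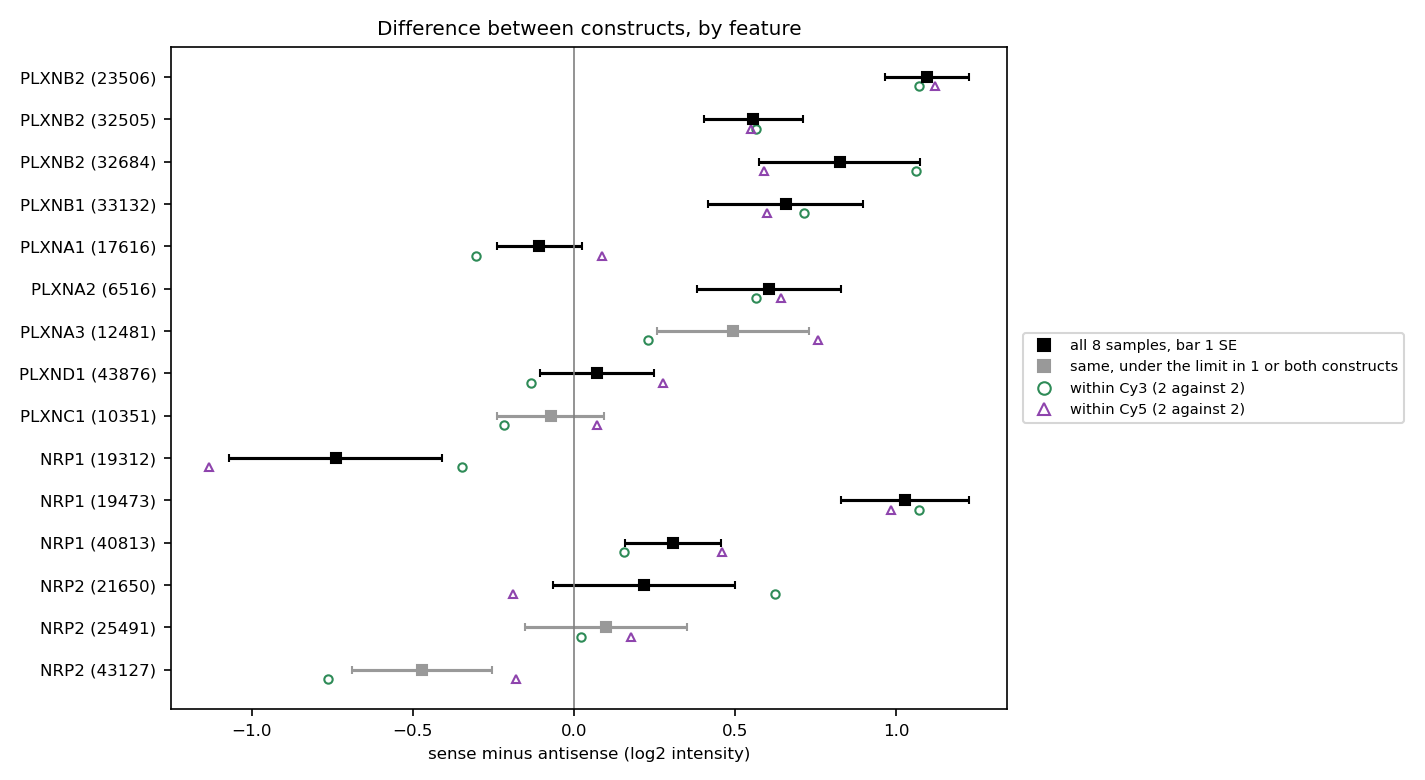
Sense minus antisense difference in log2 intensity for each plexin and neuropilin feature, with its standard error as the bar, beside the differences within Cy3 and within Cy5. NRP1 holds both a feature at 1.03 and a feature at -0.74, while the 3 PLXNB2 features lie between 0.56 and 1.10.

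Of the 12 features of the genes other than PLXNB2, 0 passed an adjusted p under 0.05 with limma (adjusted p 0.164 to 0.863), where 17 features, or 0.0677%, passed in the whole table, and 0.0319% passed with higher values in sense samples. At an unadjusted p under 0.05, 4 of the 12 passed, against 14.2% of all features. Sense 4 and antisense 2 were then left out, as the samples whose removal gave the lowest mean coefficient of variation here. Antisense 2 is the sample that overlapped the sense samples on PLXNA2 6516 and PLXNB1 33132. A re-implementation of SAM (significance analysis of microarrays) was run on the other 3 against 3 samples. It used a false discovery rate of at most 5.4% and at least 1.4-fold. It called PLXNA2 feature 6516, NRP1 feature 19473 and PLXNB1 feature 33132, where it called 1.67% of all features. Leaving out antisense 2 removes the overlap on PLXNA2 and PLXNB1, so the calls of those features are no support for a difference. limma on the same 3 against 3 samples called 2 of the 12, PLXNA2 6516 and NRP1 19473, against 4.25% of all features. It did not call PLXNB1 33132 (limma adjusted p = 0.0668). With array weights it called 4 of the 12, against 18.2% of all features, and within the Cy3 samples 1 of the 12, against 11.5%. Of the 4 calls with array weights, 3 were higher in sense samples and 1 was lower, PLXNA1 17616 at -0.29.

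Of the 11 family features detected in both constructs, 9 had a positive difference and 2 a negative one, and 49.4% of all detected features were positive. Their median difference was 0.56, against -0.0038 over all detected features. A difference of at least 0.5 was found for 6 of the 11 and for 5.17% of all detected features. Without PLXNB2, the 8 remaining features had a median of 0.26, with 6 positive and 3 at 0.5 or above. PLXNB2 was chosen for its difference, and the features of 1 gene are not independent, so these counts carry no test.

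All sense samples were above all antisense samples for 3 of the 11 detected features, PLXNB2 23506 and NRP1 19473 and 40813, against 3.76% of all detected features. The opposite order was found for 0 of the 11, against 3.39%. Antisense 2 was the highest antisense sample on 6 of the 11, against 39.6% of all detected features. Without antisense 2 the count was 7 of 11, against 10.3% of all detected features, and without sense 4 as well it was 7 of 11, against 14.2%. The 4 features gained were PLXNB2 32505 and 32684, PLXNB1 33132 and PLXNA2 6516. Of the 8 detected features of genes other than PLXNB2, the order held for 2 with all samples and for 4 under either omission. Antisense 2 had already been seen to overlap the sense samples on these features, so the larger counts are no support for a difference.

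The dyes were compared with each other in the same model. Cy5 minus Cy3 lay between -0.53 and 0.64 over the 15 features, and 0 of them passed an adjusted p under 0.05 with limma (lowest 0.2), as 0% of all features did. At an unadjusted p under 0.05, 3 of the 15 passed, PLXNB2 23506, PLXNA2 6516 and PLXNC1 10351, against 18.3% of all features. The construct difference was compared between dyes with an interaction term. It passed for 0 of 15 features (limma, adjusted p 0.946 to 0.998, 0 at an unadjusted p under 0.05), and over all features 0% passed and 4.67% had an unadjusted p under 0.05. The sign was the same in both dyes for 8 of the 11 detected features.

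The features were next compared by the shape of their profiles, with each feature's mean over the 8 samples subtracted. The distance is the root mean square of the log2 deviations between 2 features. Among family members, PLXNB2 32505 lay nearest to PLXNB1, at 0.19, and PLXNB1 lay 0.20 from PLXNA2. PLXNB2 23506 lay nearest to NRP1 19473, at 0.26, and further from its own companion 32505, at 0.37. Over the 21451 features detected in both constructs, the median distance to PLXNB2 32505 was 0.44. In the list that follows, each of 11626 other genes stands with its feature nearest to PLXNB2 32505.

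The genes nearest to PLXNB2 32505 were MARK4 at 0.0452, PRR4 at 0.0578, TLE4 at 0.0729, TUBGCP6 at 0.074, JUP at 0.0747 and PABPC1L at 0.0876. MARK4 encodes a kinase of microtubule-associated proteins, TLE4 a transcriptional corepressor, TUBGCP6 a subunit of the gamma-tubulin ring complex and JUP plakoglobin, a protein of cell junctions. Their sense minus antisense differences lay between 0.47 and 0.59, near the 0.56 of PLXNB2 32505, as the measure of likeness requires. TUBGCP6 is also a chromosomal neighbour, 4 protein-coding genes from PLXNB2.

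**Figure D3:**
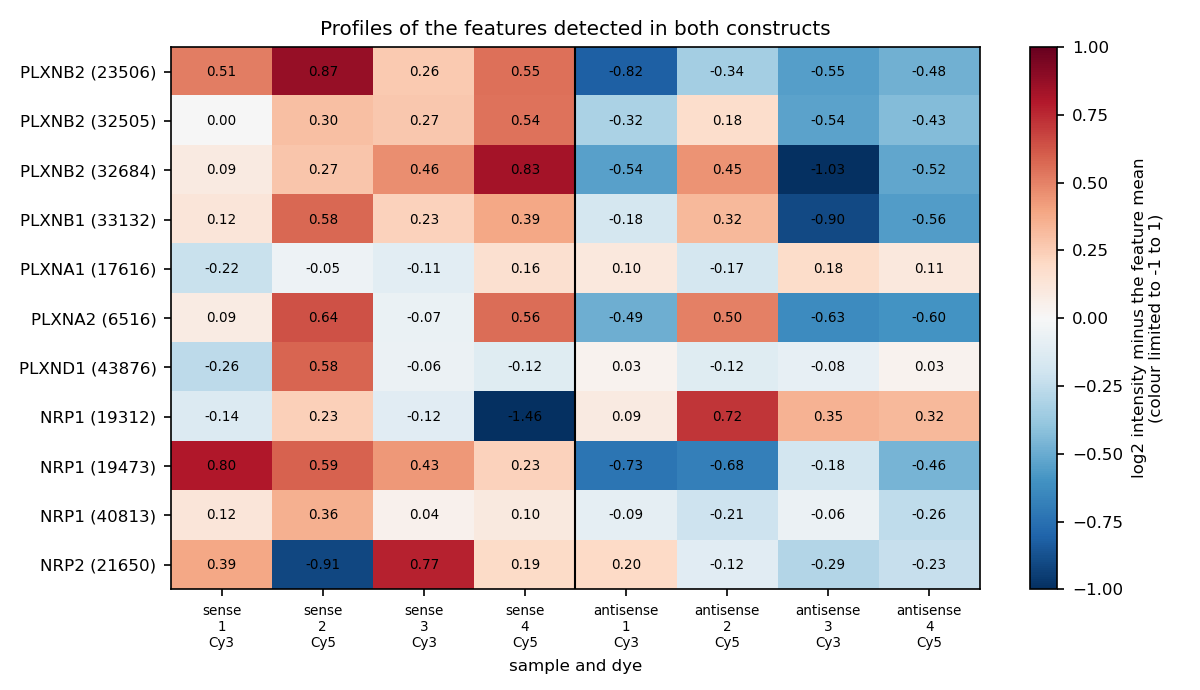
Log2 intensity minus the feature's own mean over the 8 samples, as a colour and a number in each cell, for the detected plexin and neuropilin features, with sense samples left of antisense samples. Antisense 2 lies above the other antisense samples for PLXNB2 32684, PLXNB1 and PLXNA2, and sense 4 is the low point of NRP1 19312.

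Other genes of the pathway were taken from 7 lists of remaining plexin-type genes, ligands, co-receptors, effectors and chromosomal neighbours, with 178 features, of which 159 were detected in both constructs. limma called 0 of the 178 (lowest adjusted p = 0.215), where 0.0677% of all features were called. At an unadjusted p under 0.05, 35 or 19.7% passed, against 14.2% of all features. All 10 features of FYN, 1 gene of the effector list, were among those 35, and features of 1 gene are not independent. SAM on 3 against 3 samples called 5 of the 178, or 2.81%, against 1.67% of all features, for CFL1 with 2 features, MAPK8IP2, VEGFA and FARP1, all higher in sense samples. limma on the same samples called 9, or 5.06%, against 4.25% of all features. Of these, 5 were higher in sense samples, for CFL1 with 2 features, MAPK8IP2, TUBGCP6 and FARP1, and 4 were lower, for ERBB2 with 2 features, RAP1A and DPYSL2. These shares lay near those of all features.

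PLXNA4 and PLXDC1 lay under the limits, and PLXDC2, a gene with a plexin-like repeat, differed by -0.11 (SE 0.24). The ligands showed small differences. Of the secreted class 3 semaphorins, 4 features of 3 genes were detected, 3 with a positive and 1 with a negative difference (median 0.14). SEMA3B, a ligand that acts through neuropilins, had 0.43 and 0.26 on its 2 features. The class 4 semaphorins, ligands of class B plexins, had 7 detected features of 5 genes, 5 positive and 2 negative, with a median of 0.03. SEMA4C, a ligand of plexin-B2, differed by 0.42 on 1 feature and by 0.0034 on the other. Classes 5, 6 and 7 had 2 positive and 2 negative features, with a median of 0.08.

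Among other ligands and co-receptors, 17 detected features were positive and 27 negative (median -0.09). By gene, 6 were positive and 6 negative, with a median of 0.02, since ERBB2 and MET together account for 20 of the negative features. VEGFA, a ligand of neuropilin-1, had 13 features between -0.17 and 0.96. The highest was feature 23078, at 28.37 ± 0.34 in sense and 27.41 ± 0.25 in antisense samples (SD, n = 4 each), a difference of 0.96 (SE 0.22, limma adjusted p = 0.215). ERBB2, a receptor tyrosine kinase that associates with class B plexins, had a negative difference on all 10 of its features, with a median of -0.41. That median was -0.93 in Cy3 and 0.11 in Cy5. MET, a partner of plexin-B1, had 10 features between -0.15 and -0.08. ANG, which encodes angiogenin, a ligand of plexin-B2, differed by -0.49 (SE 0.19, limma adjusted p = 0.318).

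Of 27 detected genes for cytoplasmic effectors, 22 had a positive and 5 a negative median difference, against 50.1% positive among 11627 detected genes. Over their 75 features, 63 were positive and 12 negative, with a median of 0.19. FYN, a kinase downstream of plexin-A and neuropilin signalling, had 10 features between 0.39 and 0.50, all with every sense sample above every antisense sample, against 3.76% of all detected features. Those 10 report on 1 gene and are not independent. In the whole effector list 12 of 75 features had this order, and 10 of those 12 are the FYN features. The opposite order was found for 2 of 75, against 3.39% of all detected features. Feature 6351 of FYN averaged 31.50 ± 0.21 in sense and 31.00 ± 0.01 in antisense samples (SD, n = 4 each), with limma adjusted p = 0.246.

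CFL1, the actin-severing protein cofilin, had differences of 0.64 and 0.68 on its 2 features, with medians of 1.17 in Cy3 and 0.15 in Cy5. The collapsin response mediators CRMP1 and DPYSL3 differed by 0.56 and 0.46, while DPYSL2 differed by -0.51 on 1 feature and by 0.05 on the other. RAP1A, a small GTPase on which plexins act, differed by -0.55 (SE 0.15, limma adjusted p = 0.252), and every antisense sample lay above every sense sample. FARP1 had 1 feature above and 1 below 0, at 0.55 and -0.18.

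The neighbours of PLXNB2 near the end of the long arm of chromosome 22 had positive differences for 14 of 19 genes, with a median of 0.21 over genes, against 50.1% positive and a median of 0.0007 over all detected genes. MAPK8IP2, a scaffold protein of the JNK pathway, differed by 0.65 (SE 0.20, limma adjusted p = 0.275), SBF1, a myotubularin-related protein, by 0.53 and TUBGCP6 by 0.48. DENND6B, next to PLXNB2 on 1 side, differed by -0.36 (SE 0.20, limma adjusted p = 0.395), the lowest value of the list, and MAPK11, a MAP kinase gene next to it on the other side, by 0.35. MAPK8IP2 lies 15 protein-coding genes away. SCO2, a copper chaperone of the mitochondrial respiratory chain, differed by -0.35, with every antisense sample above every sense sample. No neighbour passed the threshold.

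**Figure D4:**
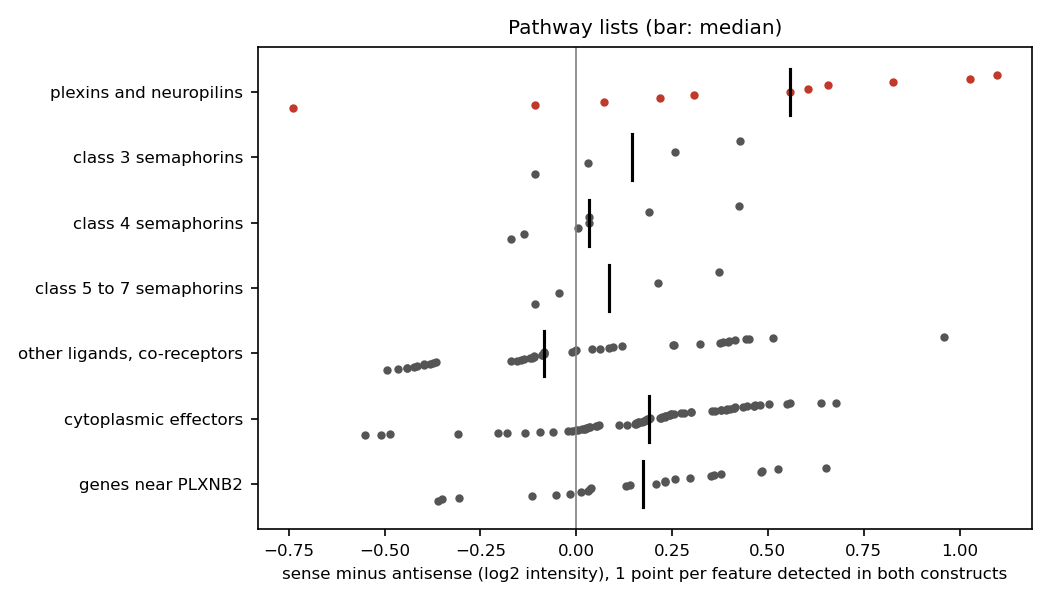
Sense minus antisense difference in log2 intensity of every detected feature in the lists of ligands, co-receptors, effectors and chromosomal neighbours, 1 point a feature and a bar at the median, with the plexins and neuropilins in the top line. The effector list has 63 features above and 12 below 0, and the co-receptor list has 17 above and 27 below.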

How the data were processed

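Per the submitters' processing notes, arrays were read with Agilent Feature Extraction 9.5. The authors deposited linear intensity values, scaled between samples by the 40% trimmed mean and left blank where replicates of a construct disagreed on whether a probe was expressed, per the design text. The table lists 45015 features, 25094 with all 8 values and 19921 with none. Of those, 20901 had 1 gene in the platform annotation, 46 had several and 4147 had none listed.

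Detection limits were inferred as the set that left the fewest features detected in only some samples of a construct. A feature under its limits in 1 construct has an "at least" bound there.

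Log2 values were fitted with limma 3.58.1 in R 4.3.3 (construct and dye, all 8 samples, eBayes with trend, Benjamini-Hochberg over 25094 features, threshold 0.05), and all adjusted p-values are from it. The interaction was a second fit. SAM was re-implemented with 20 label permutations, without sense 4 and antisense 2, whose removal gave the lowest mean coefficient of variation. The fits were tested on simulated data. Precision is limited by the number of arrays.

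Family members, lists and tests were chosen with earlier results of these data known. The text names every member feature with values, the 6 genes nearest to PLXNB2 in profile, and members of the lists with the largest differences or calls. Some of those list members were picked after their values were seen. A further 9 family features on the array had no value in any sample. Alternatives were scaling, filter, pseudocount, variance model, dye, blocks and left-out samples.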

Additional observations from a re-analysis of the deposited data

Results flagged for a closer look

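PLXNA2 feature 6516 had 1 sample far from the others of its group. Antisense 2 read 28.90 on the log2 scale, against 27.77 to 27.91 in the other 3 antisense samples. The gap to the nearest of them, divided by the range of the 4 samples, was 0.873, above Dixon's critical value. Of 24 groups examined over the 15 features, 1 met this rule where chance gives about 1 in 20. The sense minus antisense difference of this feature was 0.61 with all samples and 0.82 without antisense 2.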

How the results depend on the processing

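PLXNB2 feature 32505 was positive under all 21 alternatives, at 0.44 to 0.68 when 1 sample was left out. PLXNB2 was chosen for this difference, so the constant sign is no support for it. The estimate stayed at 0.56 without a dye term, with either block, with detected features only and without a variance trend. Those settings cannot move it in this balanced design. The 17 features called over the whole table were unstable in number: 2888 within Cy3, 4 within Cy5, 6 with a pseudocount of 47.2 intensity units, 1 with detected features only, 10 without a variance trend, 4556 with array weights, 7 with a possible shared array as a random block, 1066 with limma on 3 against 3 samples, 420 with SAM on them, and 4 to 20 with 1 sample left out. Among the fits with 1 sample left out, the lowest count was without sense 3. The replicate numbers did not pair the samples (correlations of same-numbered deviations 0.28, 0.0008, 0.11 and -0.11), and the replicate block gave 7 calls and none among the other family members. The shared-array block also gave none among them. Its limma adjusted p was 0.388 for NRP1 19473 and 0.543 for PLXNA2 6516, higher than in the fit reported.

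Calls among family members other than PLXNB2, 0 in the fit reported, were 1 within Cy3 and 4 with array weights, 3 higher and 1 lower in sense samples. On 3 against 3 samples they were 2 with limma and 3 with SAM, and with 1 sample left out 0 to 0. Calls in the pathway lists, also 0, were 23, 40, 9 and 5 under the same alternatives, or 12.9%, 22.5%, 5.06% and 2.81% of the list features, near the 11.5%, 18.2%, 4.25% and 1.67% of all features, and 0 to 0 with 1 sample left out. Features with all sense above all antisense samples numbered 3, and 7 without antisense 2 or in the 3 against 3 samples, an alternative chosen after seeing the data.

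Signs turned for 5 features, none with a difference above 0.22 in size. PLXNC1 was at 0.0729 within Cy5 and 0.20 after quantile normalization. Within Cy5, PLXNA1 was at 0.0879 and NRP2 21650 at -0.19. NRP2 25491 was at -0.19 with array weights, -0.0013 without sense 3, -0.0109 without sense 4 and -0.0784 without antisense 3. Its highest value was 0.3087, without antisense 1. PLXND1 was at -0.13 within Cy3, -0.12 with array weights, -0.11 without sense 2 and -0.0002 without antisense 2. Its highest value was 0.276, within Cy5, and it was 0.1721 without sense 4. The cause was not tested. Signal near the detection limit leaves PLXNA3, PLXNC1 and 2 NRP2 features without a difference measured above the limits in both constructs.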
